A study of Mus musculus with 12 samples.

Results

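The 10 genes described here encode the peroxisome proliferator-activated receptor gamma coactivators (the PGC-1 family) and the factors through which they act on mitochondria. They are Ppargc1a, Ppargc1b, Pprc1, Nrf1, Gabpa, Esrra, Tfam, Tfb2m, Polrmt and Polg. The members are defined by gene name, and all 10 were found among the 27833 genes of the expression table. RNA sequencing of the hippocampus was carried out on 12 libraries of male wild-type C57BL/6J mice that were 20 months old. The CON group (3 libraries) was given 0.2 mL of normal saline by oral gavage for 14 days. The PQQ-L group (5 libraries) was given pyrroloquinoline quinone (PQQ) in saline at 5 mg/kg/day, and the PQQ-H group (4 libraries) at 10 mg/kg/day. By the study's methods, behavioral tests came first, and food was then withheld for 12 h before tissue was taken. PQQ is a bacterial redox cofactor, and the study asked how it affects hippocampal mitochondria and cognition in natural aging. The study assigned 6 mice to each group, and the labels do not say whether each library is 1 mouse, so the p-values measure only the spread between libraries. No young mice are among the libraries, so each value is relative to aged mice given saline.

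The PGC-1 coactivators do not bind DNA themselves. They dock onto transcription factors such as NRF1, the GA-binding protein (whose DNA-binding subunit is GABPA) and the estrogen-related receptor alpha (ERR alpha, encoded by Esrra), and these switch on nuclear genes for the respiratory chain and for TFAM. TFAM, TFB2M and the RNA polymerase POLRMT then transcribe mitochondrial DNA, and the DNA polymerase gamma, whose catalytic subunit is encoded by Polg, replicates it. In neurons this program is known for its link to energy demand, and its activity is set in large part by modification of the PGC-1 alpha protein, which an RNA measurement does not see.

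The promoters of several members hold a short sequence of the kind that the GA-binding protein can bind. A few hold a half-site of the upstream factor CREB, as do 20.8% of all promoter windows searched. The 100 bases before the RefSeq start are given for those 5 members where such a sequence was found in that stretch. The sequences are from RefSeq on build GRCm38.p6 and are written along the strand of the gene. Capitals mark the GA-binding protein sequence CCGGAAG in the last 4 and, in Ppargc1a, the CREB half-site TGACG, each on either strand, so that CTTCCGG and CGTCA are the same sequences read from the opposite strand.
Ppargc1a, chr5:51567726-51567825, minus strand: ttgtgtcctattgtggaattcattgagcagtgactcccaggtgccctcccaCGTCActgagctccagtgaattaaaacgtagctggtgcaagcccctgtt
Gabpa, chr16:84835024-84835123, plus strand: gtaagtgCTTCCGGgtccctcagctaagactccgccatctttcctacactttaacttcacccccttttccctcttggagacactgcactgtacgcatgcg
Tfam, chr10:71238045-71238144, minus strand: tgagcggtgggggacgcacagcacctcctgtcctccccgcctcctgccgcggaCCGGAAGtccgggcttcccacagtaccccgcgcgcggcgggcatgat
Polrmt, chr10:79746582-79746681, minus strand: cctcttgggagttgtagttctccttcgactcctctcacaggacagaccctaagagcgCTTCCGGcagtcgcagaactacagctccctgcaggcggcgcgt
Polg, chr7:79466274-79466373, minus strand: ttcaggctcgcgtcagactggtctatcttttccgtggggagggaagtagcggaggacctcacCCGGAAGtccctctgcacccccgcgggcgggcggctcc

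Of the 10 members, 9 had a promoter in the RefSeq table, as 10 windows of 300 bases (250 before and 50 after the start). The GA-binding protein sequence was found in the windows of Gabpa, Tfam, Polrmt and Polg, against 8.86% of all 32851 promoter windows searched. In Tfam, Polrmt and Polg it lay within 50 bases of the start, ending at -41, -37 and -32, whereas in Gabpa it ended at -87. The NRF1 sequence (GCGCA and GCGC with 1 free base between them) was found in Polrmt, where a pair of matches overlapped at the start (-6 to 4 and 1 to 10), against 4.60% of all windows. The CREB half-site TGACG was found in Ppargc1a at -49 to -45 and in Polg at -90 to -86, against 20.8% of all windows. The ERR half-site AAGGTCA, which 4.72% of all windows hold, was found in none of the members' windows. Both strands were searched for each of the 4 sequences. A match is a description of these letters and not a measured binding site.

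Expression was measured as FPKM (fragments per kilobase of gene, relative to the library total), a level that is scaled by gene length and library total. The libraries held 29654553 to 38179496 reads on genes, as recovered from the FPKM. The groups, and the libraries within them, also differed in the RNA of tissue markers. The 12 striatal marker genes summed to 1431 to 3493 FPKM in CON 1, CON 3 and the PQQ-H libraries 1 and 2, and to 80.3 to 199 in the other 8 libraries, which hold CON 2 and all 5 PQQ-L libraries, and Isl1 was at 0 in some PQQ libraries. The 12 choroid plexus markers summed to 1557 to 5487 FPKM in CON, 50.5 to 125 in PQQ-L and 21.5 to 35.2 in PQQ-H, with Kcne2 and Wfdc2 at 0 in some libraries of either dose and Folr1, Otx2 and Slc4a5 in some PQQ-H libraries, so treatment and choroid plexus content cannot be told apart. Of 10 thalamus markers, 6 were lower at an unadjusted p below 0.05 at each dose against CON (summed 32.4 to 151 FPKM in CON, 28.1 to 117 in PQQ-L and 20.1 to 46.3 in PQQ-H), and CON 2 had the highest sum. All 7 oligodendrocyte markers had a log2FC below 0 at each dose (median -0.61 and -0.33), though none had an unadjusted p below 0.05. All 12 hippocampal neuron markers were above 0 in each library (summed 591 to 1675 FPKM), though their mean log2(FPKM + 0.1) was lower in the 4 striatum-rich libraries (2.03 to 3.48) than in the others (3.94 to 5.45). In bulk RNA, fewer cells of a type and less RNA per cell cannot be told apart.

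All 10 members were expressed in each of the 12 libraries. Esrra had the highest mean level (22.9 FPKM), followed by Tfam (9.49), Tfb2m (5.95), Polg (5.07), Polrmt (4.80), Gabpa (4.62), Ppargc1a (2.90), Pprc1 (2.44), Ppargc1b (1.54) and Nrf1 (1.03). Esrra was above Tfam and Tfam above Tfb2m in 12 of 12 libraries, with ranges that did not meet. Gabpa also stood above Ppargc1a, Pprc1 above Ppargc1b, and Ppargc1b above Nrf1 in 12 of 12 libraries. In contrast, Polg exceeded Polrmt in 8 libraries and Polrmt exceeded Gabpa in 7, so these neighbors did not differ beyond their spread. Tfb2m exceeded Polg in 11 libraries and Ppargc1a exceeded Pprc1 in 10. By FPKM, the coactivators were thus among the lowest members, below the mitochondrial factors that the pathway ends in. FPKM is divided by gene length. As worked out from the FPKM and the recovered reads, this length ran from 2345 bases (Esrra) to 14959 (Nrf1). In recovered reads, Ppargc1a had 938 to 1774, Tfb2m 470 to 647, Polrmt 606 to 825, Tfam 1139 to 1645 and Polg 1364 to 2048. How far the order rests on the lengths used was not tested.

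**Figure D1:**
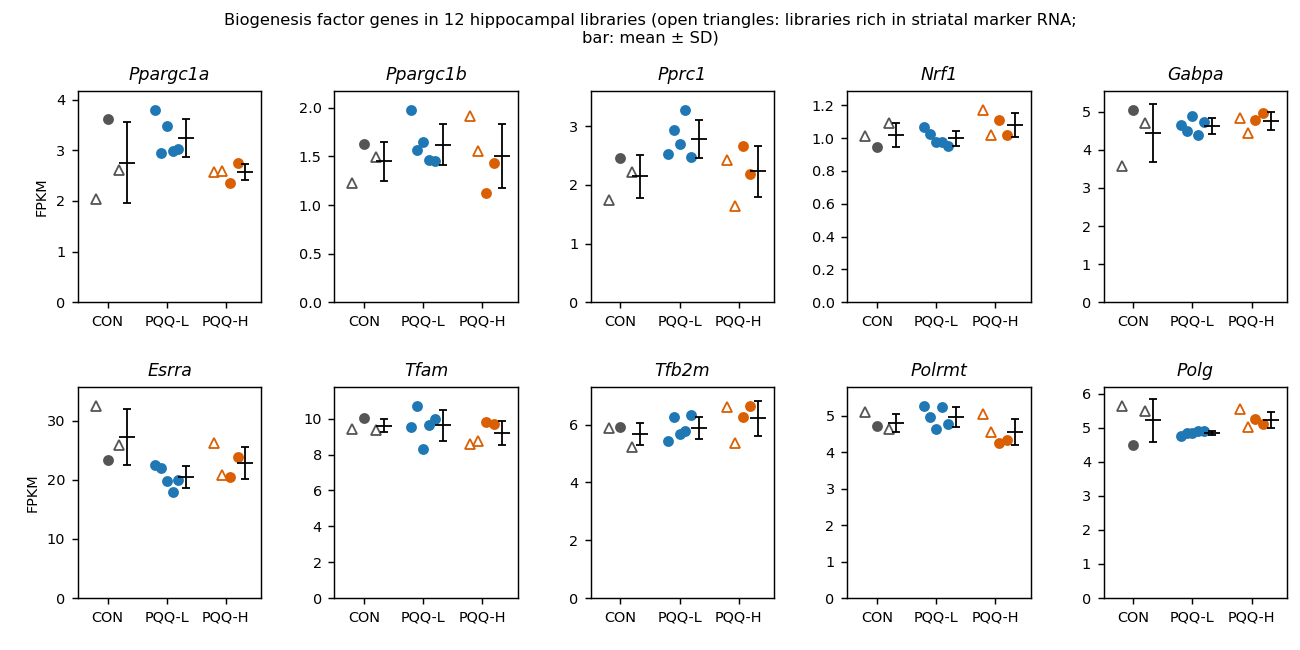
FPKM (vertical axes, from 0) of the 10 members in each library, by group; filled circles are libraries poor in striatal marker RNA, open triangles the 4 rich ones, and the black mark with its bar is the group mean ± SD. Ppargc1a in PQQ-H lies below all PQQ-L libraries, Esrra in PQQ-L lies below all CON libraries, and the levels of Tfam, Tfb2m and Polrmt overlap between all groups.

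Ppargc1a, which encodes PGC-1 alpha and is the most inducible of the coactivators, was at 2.03, 3.61 and 2.61 FPKM in CON 1 to 3. In PQQ-L it was at 3.79, 2.95, 3.48, 2.99 and 3.02, and in PQQ-H at 2.56, 2.60, 2.36 and 2.76. The CON libraries covered nearly the whole range of the gene, and the 4 PQQ-H libraries all lay below the 5 PQQ-L libraries. The group means were 2.75 ± 0.801 (SD, n = 3), 3.24 ± 0.373 (SD, n = 5) and 2.57 ± 0.164 (SD, n = 4).

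Ppargc1b, which encodes PGC-1 beta, its closest relative, was at 1.23, 1.62 and 1.50 FPKM in CON. It was at 1.97, 1.57, 1.65, 1.47 and 1.45 in PQQ-L and at 1.92, 1.55, 1.12 and 1.43 in PQQ-H. The groups overlapped, and PQQ-H held both the lowest value and one of the highest. Pprc1 encodes the PGC-1-related coactivator PRC, which responds to growth signals. Its values were 1.75, 2.47 and 2.22 FPKM in CON, 2.53, 2.94, 2.70, 3.27 and 2.48 in PQQ-L, and 2.42, 1.65, 2.67 and 2.19 in PQQ-H. All 5 PQQ-L libraries were above the CON libraries, although PQQ-L 5 exceeded CON 2 by a small margin only.

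Among the transcription factors, Nrf1 (nuclear respiratory factor 1, which acts on genes of the respiratory chain and on Tfam) was the most even. It was at 1.01, 0.945 and 1.09 FPKM in CON, 1.07, 1.03, 0.973, 0.975 and 0.952 in PQQ-L, and 1.17, 1.02, 1.11 and 1.02 in PQQ-H. Gabpa was at 3.59, 5.04 and 4.71 FPKM in CON, 4.65, 4.48, 4.89, 4.38 and 4.73 in PQQ-L, and 4.82, 4.43, 4.79 and 4.96 in PQQ-H. Both the lowest and the highest Gabpa value belonged to CON, and the PQQ values lay between them. Esrra encodes ERR alpha, the orphan nuclear receptor through which PGC-1 alpha reaches genes of oxidative metabolism. Esrra was at 32.5, 23.3 and 25.8 FPKM in CON, 22.5, 22.0, 19.8, 18.0 and 20.0 in PQQ-L, and 26.2, 20.8, 20.4 and 23.9 in PQQ-H. All 5 PQQ-L libraries were below the lowest CON library, and the PQQ-H libraries overlapped both other groups.

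Tfam, which packages mitochondrial DNA and starts its transcription, was at 9.45, 10.02 and 9.35 FPKM in CON. It was at 9.54, 10.7, 8.32, 9.64 and 10.01 in PQQ-L and at 8.57, 8.75, 9.83 and 9.71 in PQQ-H. The 3 groups overlapped fully, with means of 9.61 ± 0.363 (SD, n = 3), 9.64 ± 0.875 (SD, n = 5) and 9.21 ± 0.649 (SD, n = 4). Tfb2m, whose product opens the mitochondrial promoter for the polymerase, was at 5.88, 5.94 and 5.24 FPKM in CON, 5.43, 6.26, 5.67, 5.78 and 6.34 in PQQ-L, and 6.61, 5.36, 6.28 and 6.65 in PQQ-H. Polrmt was at 5.10, 4.71 and 4.63 FPKM in CON, 5.27, 4.98, 4.65, 5.23 and 4.77 in PQQ-L, and 5.05, 4.55, 4.25 and 4.35 in PQQ-H. Neither gene separated any pair of groups. Polg was at 5.64, 4.50 and 5.51 FPKM in CON, 4.77, 4.85, 4.84, 4.91 and 4.91 in PQQ-L, and 5.55, 5.02, 5.25 and 5.10 in PQQ-H. The 5 PQQ-L values of Polg spanned a narrow range, below all PQQ-H values and inside the range of CON.

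The spread between libraries, pooled over the groups, was larger than counting error for each member. The coactivators varied most, with a coefficient of variation within groups of 16.0% for Ppargc1a, 16.7% for Ppargc1b and 16.5% for Pprc1, where counting alone allows 2.82%, 4.21% and 4.33%. Esrra followed with 12.1%, and the other 6 members lay between 6.11% (Nrf1) and 9.40% (Gabpa). Polg in PQQ-L was an exception in 1 group, with a coefficient of variation of 1.20% where counting alone allows up to 2.42%. Thus depth did not limit these comparisons as much as the number and likeness of the libraries.

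The first comparison asked whether the low dose changed the members. None of the 10 members was called in PQQ-L vs. CON by limma on log2(FPKM + 0.1) over 13796 genes (adjusted p below 0.05 and |log2FC| above 1), where 0.471% of all genes tested were called. At an unadjusted p below 0.05 there were 2 members, Esrra and Pprc1, against 20.5% of all genes. Esrra averaged 27.2 ± 4.76 FPKM in CON (SD, n = 3) against 20.5 ± 1.82 in PQQ-L (SD, n = 5), a log2FC of -0.40 (95% interval -0.67 to -0.13, limma adjusted p = 0.188). Pprc1 averaged 2.15 ± 0.366 FPKM in CON and 2.78 ± 0.327 in PQQ-L, a log2FC of 0.37 (95% interval 0.0069 to 0.73, limma adjusted p = 0.240). These 2 members were also those whose groups did not overlap, against 10.6% of all genes (2.96% higher, as Pprc1, and 7.66% lower, as Esrra). In two-sided exact permutation tests, p was 0.0179 for Esrra, the smallest that 3 against 5 libraries can give, and 0.0357 for Pprc1. Ppargc1a had a log2FC of 0.26 (95% interval -0.09 to 0.61, limma adjusted p = 0.305).

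These differences depended on which CON libraries were counted. CON 1 had the highest Esrra and Polg and the lowest Ppargc1a and Gabpa of all 12 libraries, and it is one of the striatum-rich libraries. Without CON 1, the log2FC was -0.27 for Esrra, 0.23 for Pprc1 and 0.07 for Ppargc1a. Without CON 2, the one CON library poor in striatal markers, Ppargc1a (log2FC 0.47, limma adjusted p = 0.0379) and Esrra (log2FC -0.51, limma adjusted p = 0.0316) passed an adjusted p of 0.05, as did 3225 genes in all (23.4%), but neither reached a |log2FC| of 1. Without all 4 striatum-rich libraries, which leaves CON 2 as the one CON library, assumed to vary like the other groups, the log2FC was -0.16 for Ppargc1a, 0.16 for Pprc1 and -0.19 for Esrra, and 0 members had an unadjusted p below 0.05, against 4.29% of all genes. The part of tissue make-up in these differences was not tested further.

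In PQQ-H vs. CON, 0 of 10 members were called by limma, against 0.819% of all genes, and 0 members had an unadjusted p below 0.05, against 9.73%. The test by voom on recovered reads gave the same counts of 0. At an unadjusted limma p below 0.05 the count was 1 without CON 2 (20.1% of all genes). It was also 1 without PQQ-H 1 (12.8% of all genes). No member separated the groups, while 7.08% of all genes did. The log2FC with the largest size was that of Esrra, -0.24 (95% interval -0.53 to 0.04, limma adjusted p = 0.588), which was -0.35 without CON 2 and -0.11 without CON 1, and the other 9 members lay between -0.08 (Polrmt) and 0.13 (Tfb2m). Ppargc1a was at -0.06 (95% interval -0.43 to 0.31). Without the 4 striatum-rich libraries Ppargc1a was at -0.49 (limma adjusted p = 0.445), a value set against CON 2 alone, which had the second-highest Ppargc1a of all libraries.

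The last comparison was between the doses. None of the members was called in PQQ-H vs. PQQ-L by limma, where 0% of all genes tested were called. At an unadjusted p below 0.05 there were 0 members by limma and 2 by voom on recovered reads (Ppargc1a and Pprc1), against 8.15% of all genes by limma and 7.91% by voom. Ppargc1a did not overlap between the doses and was lower in PQQ-H, as 3.33% of all genes were, and Polg did not overlap and was higher in PQQ-H, as 1.42% of all genes were. Among 30 exact permutation tests over members and comparisons, the two-sided p was 0.00794 for each of these, which is the smallest that 4 against 5 libraries can give. The log2FC was -0.32 for Ppargc1a (95% interval -0.64 to 0.00044, limma adjusted p = 0.580) and 0.10 for Polg (95% interval -0.06 to 0.27, limma adjusted p = 0.616). Pprc1 also had a log2FC of -0.32 (95% interval -0.65 to 0.01), with an exact permutation p of 0.0476 and overlapping groups, and it was -0.19 without PQQ-H 2.

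Tissue markers also differed between the doses, with 6 of 12 choroid plexus markers lower in PQQ-H at an unadjusted limma p below 0.05, against 4.6% of all genes. The part of tissue make-up in the dose differences was not tested. The dose difference of Ppargc1a was -0.33 without the striatum-rich libraries, which leaves 2 PQQ-H libraries. With the striatal marker score as a covariate, this dose difference was -0.24. It lay between -0.35 and -0.26 when each library was left out in turn. The library names start with the letter L (7 libraries) or R (5 libraries), whose meaning the labels do not give. Within the L libraries the dose difference of Ppargc1a in mean log2(FPKM + 0.1) was -0.25 (3 PQQ-H against 2 PQQ-L) and within the R libraries it was -0.29 (1 against 3). For Polg these values were 0.10 and 0.08. By contrast, Ppargc1a in PQQ-L against CON was -0.03 within the L libraries and 0.71 within the R libraries, where CON 1 is the single control. Esrra in PQQ-L against CON was -0.37 and -0.60, and Pprc1 was 0.27 and 0.61.

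**Figure D2:**
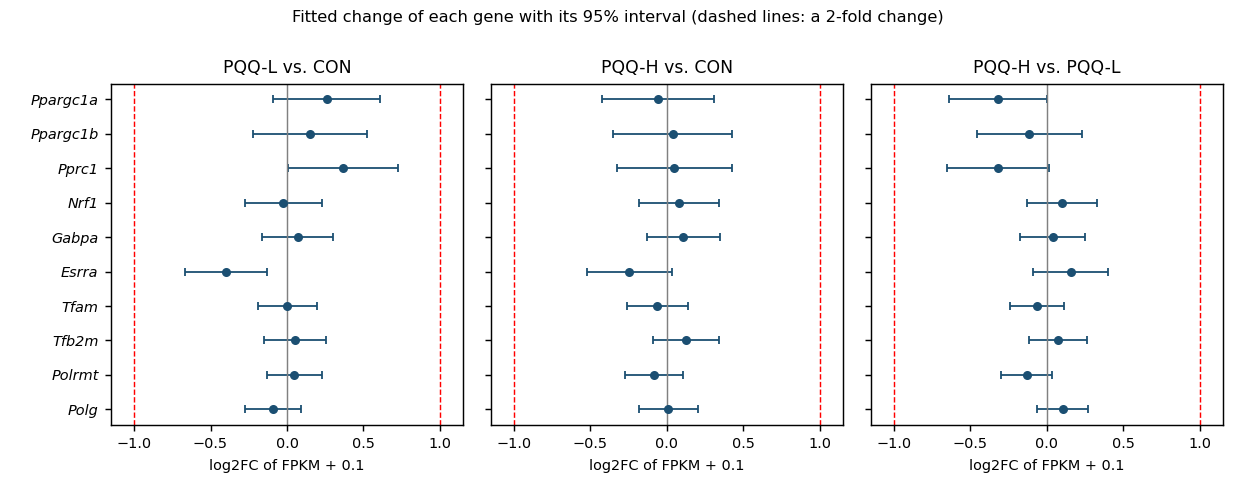
Fitted log2FC (horizontal axes, log2 of FPKM + 0.1) of the 10 members in the 3 comparisons; points are limma estimates from all 12 libraries, bars their 95% intervals, and dashed red lines a log2FC of -1 and 1. All 30 intervals lie between the dashed lines, and those of Esrra and Pprc1 in PQQ-L vs. CON leave out 0.

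Each interval bounds the fitted difference of a single member between groups of libraries. It does not bound an effect of PQQ, since treatment and choroid plexus content cannot be told apart. For 10 of 10 members the 95% interval lay within a log2FC of -1 to 1 in each comparison, as it did for 78.3%, 81.3% and 86.2% of all genes in the low dose against CON, the high dose against CON and the high against the low dose. The bound farthest from 0 was 0.73, 0.53 and 0.65 in size in these comparisons, and over all 21 alternative analyses it was 0.88, 0.93 and 0.78. Tfam was the member nearest to 0 in PQQ-L vs. CON, with a log2FC of 0.0013 (95% interval -0.19 to 0.19).

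Over the 45 pairs of members, Pearson's r of log2(FPKM + 0.1) across 12 libraries had a median of 0.05, and 4 pairs had an r beyond 0.6 in size. Within the 8 striatum-poor libraries the median was -0.06 and 12 pairs were beyond 0.6. The 2 counts are not alike, since an r of this size arises by chance more often with 8 libraries than with 12. The share over all pairs of genes was not computed. These correlations are descriptions, since the libraries share depth and tissue make-up. The pair with the strongest relation was Ppargc1a and Polg, which ran opposite to each other (r = -0.864, Spearman's rho = -0.923). Without the 2 libraries farthest from the median of Ppargc1a, r was -0.830, and within the 8 striatum-poor libraries it was -0.867. Ppargc1a in the striatum-rich libraries ranged from 2.03 to 2.61 FPKM and in the others from 2.36 to 3.79, while Polg ranged from 5.02 to 5.64 and from 4.50 to 5.25.

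**Figure D3:**
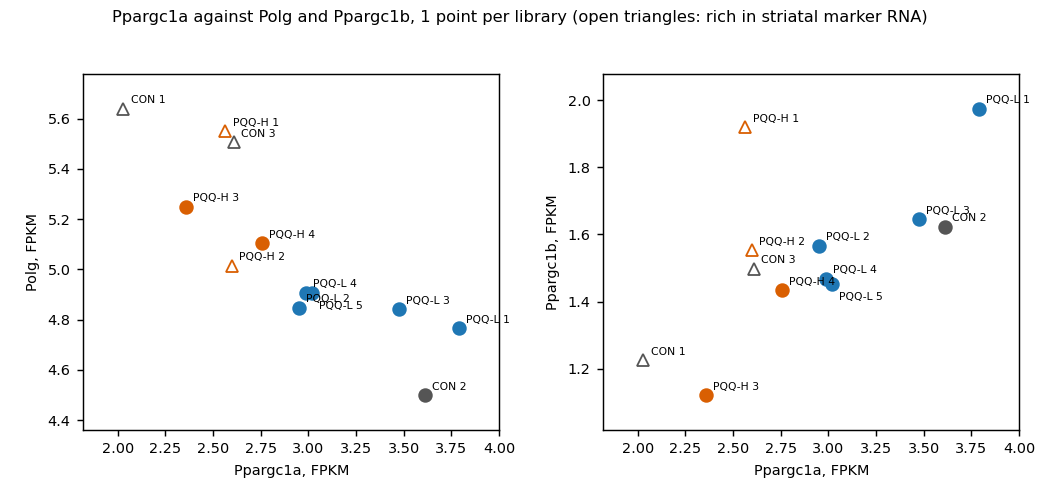
FPKM of Ppargc1a (horizontal axes) against Polg (left) and Ppargc1b (right), 1 point per library, coloured gray for CON, blue for PQQ-L and orange for PQQ-H; open triangles are the 4 libraries rich in striatal marker RNA. Polg is lower where Ppargc1a is higher (r = -0.864 in 12 libraries), and Ppargc1b follows Ppargc1a more closely without the open triangles (r = 0.932 in 8 libraries) than with them (r = 0.657 in 12).

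The coactivators Ppargc1a and Ppargc1b had an r of 0.657 over 12 libraries (rho = 0.566), 0.374 without the 2 farthest libraries and 0.932 within the 8 striatum-poor libraries, so their relation rests on which libraries are counted. PQQ-H 1 stood off this line, with the second-highest Ppargc1b and a low Ppargc1a. Nrf1 and Polg had an r of 0.662 (0.608 in the striatum-poor libraries). Esrra and Polg had an r of 0.637, which turned to -0.238 in the striatum-poor libraries. Pprc1 and Esrra ran opposite to each other in both sets (r = -0.598 and -0.746). The sign of r was the same in both sets for 30 of the 45 pairs.

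Of the 13795 other genes tested, Tlcd4 had the pattern most like Ppargc1a (r = 0.977, rho = 0.965, 12 libraries), followed by Pde4d (r = 0.957) and Ttll7 (r = 0.955). Pde4d encodes a phosphodiesterase that breaks down cyclic AMP, and Ttll7 a tubulin polyglutamylase. Tlcd4 averaged 6.58 FPKM in CON, 7.98 at the low dose and 6.16 at the high dose, the same order of groups as Ppargc1a. The genes most like Tfam were Eif2d (r = 0.918), which encodes a translation initiation factor, Ppm1g (r = 0.912), a protein phosphatase, and Mcm6 (r = 0.877), a subunit of the replicative helicase. The r of these 6 genes within the striatum-poor libraries was between 0.866 (Mcm6) and 0.964 (Tlcd4). With so many genes compared over 12 libraries, high values of r are found by selection alone.

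The wider pathway was described with 6 lists of genes, none of which had a gene with an adjusted p below 0.05 in any comparison by limma (0.587%, 1.09% and 0% of all genes had one). At an unadjusted p below 0.05 the background was 8.92% higher and 11.6% lower in PQQ-L vs. CON, and 1.85% higher and 7.88% lower in PQQ-H vs. CON. Upstream regulators of the PGC-1 family (AMP-activated kinase subunits, CREB and its coactivators, deacetylases and others) were all tested, 30 of 30. In PQQ-L vs. CON, 7 of them were higher and 3 lower at an unadjusted p below 0.05, and their median log2FC was 0.17 against -0.03 for all genes. Sirt1, the deacetylase that acts on PGC-1 alpha, had a mean of 2.80 ± 0.238 FPKM in CON, 3.54 ± 0.272 at the low dose and 3.15 ± 0.188 at the high dose (SD over 3, 5 and 4 libraries). Its log2FC was 0.33 in PQQ-L (limma adjusted p = 0.173) and 0.17 in PQQ-H (limma adjusted p = 0.642). Prkag1, a regulatory subunit of AMP-activated kinase, was at -0.31 and -0.19. Crtc1, a coactivator of CREB, was at 0.32 and 0.38, and Mybbp1a, a repressor of PGC-1 alpha, at -0.16 and -0.23. Without the 4 striatum-rich libraries no upstream regulator had a p below 0.05 in PQQ-L vs. CON, and the median was -0.0037. Without CON 2, by contrast, 11 of 30 upstream regulators, 4 of 16 partner factors, 3 of 27 genes of mitochondrial DNA upkeep, 2 of 20 of RNA processing and 8 of 32 nuclear target genes had a limma adjusted p below 0.05 in PQQ-L vs. CON, against 23.4% of all genes.

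The partner factors bind beside or with the coactivators, and 16 of 20 were tested, since Esrrb, Ppara, Pparg and Perm1 were below a mean of 0.5 FPKM. In each comparison with CON, 1 was higher (Thra) and 1 lower (Srebf1) at an unadjusted p below 0.05. Thra, a thyroid hormone receptor, averaged 120 ± 17.6 FPKM in CON, 149 ± 14.0 in PQQ-L and 145 ± 13.4 in PQQ-H, with log2FC of 0.32 and 0.27. Srebf1, a regulator of lipid synthesis, averaged 18.3 ± 2.64, 12.3 ± 1.42 and 13.7 ± 3.44 FPKM, with log2FC of -0.56 and -0.44.

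Among 27 of 29 genes for the transcription and upkeep of mitochondrial DNA, 1 was higher and 4 lower in PQQ-L vs. CON at an unadjusted p below 0.05, and 0 and 1 in PQQ-H vs. CON (Mterf1b and Dna2 were too low to test). Clpx, the unfoldase of a matrix protease, had a log2FC of -0.26 in PQQ-L (limma adjusted p = 0.161) and -0.21 in PQQ-H (limma adjusted p = 0.357). Ssbp1, which coats single-stranded mitochondrial DNA, was at -0.27 and -0.05, and Rrm2b, which supplies deoxynucleotides, at 0.34 and 0.29. The 20 genes of mitochondrial RNA processing gave 1 higher and 4 lower in PQQ-L and 1 higher and 2 lower in PQQ-H. Slirp (log2FC -0.33) and Hsd17b10 (-0.43) had the smallest p in PQQ-L, and Trmt10c (0.31) and Lactb2 (-0.29) in PQQ-H. Trmt10c and Hsd17b10 encode some of the subunits of mitochondrial RNase P. Their log2FC was 0.25 and -0.43 in PQQ-L, and 0.31 and -0.04 in PQQ-H.

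The nuclear target genes code for respiratory chain subunits, import proteins and matrix enzymes. In PQQ-L vs. CON, 29 of 32 had a log2FC below 0 (median -0.14), as did 7430 of all 13796 genes. At an unadjusted p below 0.05 there were 0 higher and 9 lower. Ndufs8, a complex I subunit, averaged 86.1 ± 8.70 FPKM in CON and 71.6 ± 3.86 in PQQ-L, a log2FC of -0.26 (limma adjusted p = 0.211). In PQQ-H vs. CON, 0 were higher and 1 lower at an unadjusted p below 0.05. There, 23 of 32 had a log2FC below 0 (median -0.04), as did 7670 of all 13796 genes. This high-dose direction turned with the setting. There were 20 above and 12 below 0 under median-of-ratios scaling (median 0.02, all genes 0.04). Without the 4 striatum-rich libraries there were 16 on each side. Cpt1a, which admits fatty acids into mitochondria, was the gene with the smallest p in both comparisons, with log2FC of -0.48 in PQQ-L (limma adjusted p = 0.187) and -0.52 in PQQ-H (limma adjusted p = 0.190). Uqcrc1, a complex III subunit, was at -0.19 and -0.15. The low-dose count of lower genes at an unadjusted p below 0.05 depended on the setting and moved both ways. It fell to 4 lower under median-of-ratios scaling, where 8.86% of all genes were lower. With the striatal marker score as a covariate it fell to 1 (4.99% of all genes). It rose to 13 with the letter L or R as a covariate (12.4% of all genes). Without CON 2 it rose to 14 (21.4% of all genes), and 2 were higher. The low-dose direction did not turn in these settings. Under median-of-ratios scaling, and also without CON 2, 27 of 32 had a log2FC below 0. With the striatal marker score as a covariate, and also without CON 1, it was 29 of 32. Without the 4 striatum-rich libraries, with CON 2 as the single CON library, 23 of 32 were below 0 with a median of -0.08.

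**Figure D4:**
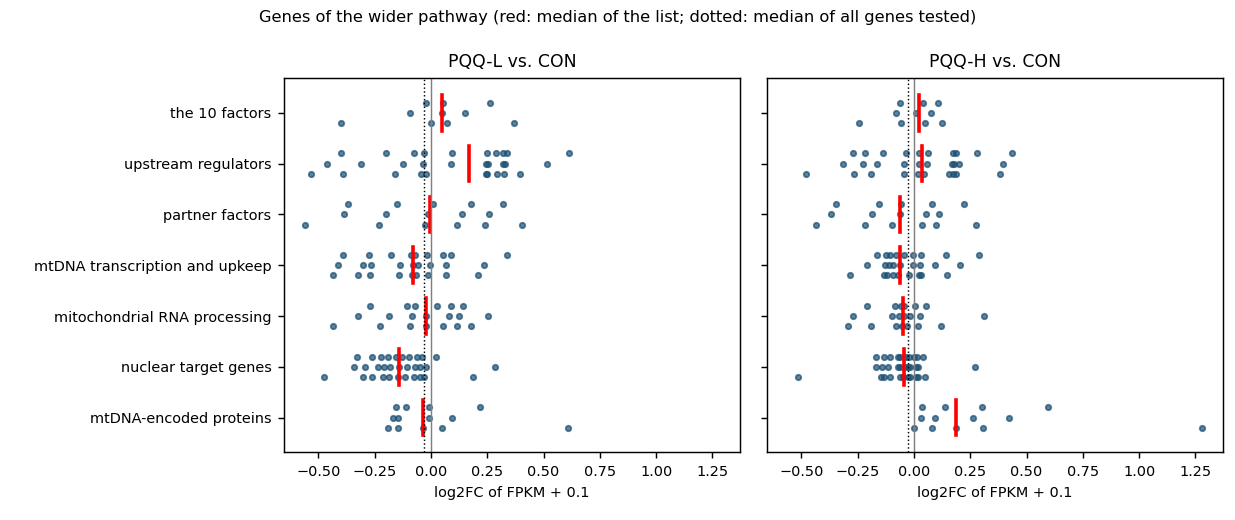
Fitted log2FC (horizontal axes, log2 of FPKM + 0.1) of each tested gene in the 10 factors and in the 6 lists of the wider pathway, for PQQ-L vs. CON (left) and PQQ-H vs. CON (right); each point is a gene, red bars are list medians and the dotted line is the median of all genes tested. In PQQ-L the nuclear target genes lie mostly below 0 (29 of 32), and at the high dose all 13 genes encoded in mitochondrial DNA lie above 0.

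The 13 protein genes of mitochondrial DNA are what TFAM, TFB2M and POLRMT transcribe. In PQQ-L vs. CON, 0 of 13 had an unadjusted p below 0.05, and 9 had a log2FC below 0 (median -0.04), as did 7430 of all 13796 genes. This direction turned with the setting, since 13 of 13 were above 0 without the 4 striatum-rich libraries (median 0.27), 12 with the striatal marker score as a covariate (0.16), 11 without CON 1 (0.09), and 7 without CON 3 (0.04) or under median-of-ratios scaling (0.0049). Without CON 2 the median was -0.21. In PQQ-H vs. CON, 13 of 13 had a log2FC above 0 (median 0.19 against -0.03 for all genes), as did 6126 of all 13796 genes. Of the 13, 2 had an unadjusted p below 0.05. These were ND3 (log2FC 0.42, limma adjusted p = 0.176) and ND4L (log2FC 0.59, limma adjusted p = 0.308), and ND4 was at 0.08. Without CON 2, 8 of 13 were above 0 in PQQ-H vs. CON with a median of 0.03, and without PQQ-H 2 it was 10 of 13 with a median of 0.08. Levels within this set ranged from 13405 to 19164 FPKM for COX1 to 3.59 to 74.6 for ATP8, and COX2, COX3 and ATP6 were between 63.7 and 311. Mitochondrial genes have near-identical copies in the nucleus, and transcripts of neighbors are cut from 1 precursor. Single values are thus uncertain, and the 13 genes do not count as independent results. The part of read assignment in these values was not tested. Tfam, Tfb2m and Polrmt had log2FC of -0.06, 0.13 and -0.08 in the same comparison.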

How the data were processed

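RNA of mouse hippocampus was sequenced on an Illumina NovaSeq instrument. The authors used fastp to filter the reads, HISAT2 for mapping and HTSeq-count for counting per gene, and the submitters' processing notes name build mm39. Versions, annotation and strand setting are not given in the sources used here. The values deposited by the authors are FPKM for 27833 genes (174 at 0 in all libraries). FPKM are scaled by gene length and library total, so a few abundant genes can shift all others.

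Groups were taken from the labels. limma 3.58.1 in R 4.3.3 was fitted with trend to log2(FPKM + 0.1) of all 12 libraries. The fit covered the 13796 genes whose mean was 0.5 FPKM or more, and p-values were adjusted by Benjamini-Hochberg over all of them. The authors' DESeq2 model was not run, since the deposited values are FPKM. Single members were compared by two-sided exact permutation tests, and 30 such tests were run with no adjustment. Whole reads were recovered from the FPKM for 100% of 25563 genes with at least 2 values (tolerance 0.02 reads) and used with voom. No 2 libraries of a group were duplicates (chi-square per degree of freedom of at least 19.0 over 19 pairs). Steps were tested on simulated data.

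All 10 members, the 6 pathway lists, the marker lists, the tests and the thresholds were chosen with earlier results of these data known. From each pathway list, genes were named if their adjusted p was below 0.05 or if their p was among the 2 smallest in either comparison with CON. For Ppargc1a and Tfam, the 3 genes with the highest r were named.

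The alternatives were a pseudocount of 1, all genes above 0, median-of-ratios scaling, only the groups compared, voom (at least 10 reads on average), the library name's first letter or a striatal marker score as a covariate, a replicate block, and each of the 12 libraries left out. Leaving out the 4 striatum-rich libraries (marker sum above 1000 FPKM) was added after seeing the data. The other steps ran in Python 3.11.15 (scipy 1.17.1, numpy 2.4.6, matplotlib 3.10.9 and pandas 2.3.3).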

Additional observations from a re-analysis of the deposited data

How the results depend on the processing

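In the main analysis and all 21 alternatives, none of the 10 members was called in any of the 3 comparisons. Of 630 alternative log2FC values of the members, 594 kept their direction and 36 changed sign, in 15 of the 30 results and none with a size above 0.26 in the main analysis. The cause was not tested. With each library left out in turn, the count of members with an adjusted p below 0.05 in PQQ-L vs. CON was 0 to 2. The 2 (Ppargc1a and Esrra) were without CON 2, where 23.4% of all genes had such a p.

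Under median-of-ratios scaling, the log2FC was 0.014 for Nrf1 in PQQ-L vs. CON, and 0.0060 for Ppargc1a and 0.0059 for Tfam in PQQ-H vs. CON. With the striatal marker score as a covariate, PQQ-L vs. CON gave 0.023 for Nrf1, -0.024 for Gabpa and -0.087 for Tfam, and PQQ-H vs. CON -0.0056 for Pprc1. Without the 4 striatum-rich libraries, PQQ-L vs. CON gave -0.16 for Ppargc1a, -0.0095 for Ppargc1b, 0.072 for Nrf1, -0.12 for Gabpa, -0.060 for Tfam, -0.013 for Tfb2m and 0.11 for Polg. In the same set, PQQ-H vs. CON gave -0.33 for Ppargc1b, -0.027 for Pprc1 and -0.046 for Gabpa, and PQQ-H vs. PQQ-L 0.023 for Tfam.

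With each library left out in turn, PQQ-L vs. CON ranged from -0.072 to 0.025 for Nrf1, -0.075 to 0.16 for Gabpa, -0.038 to 0.053 for Tfam and -0.0060 to 0.083 for Tfb2m. PQQ-H vs. CON ranged from -0.25 to 0.15 for Ppargc1a, -0.079 to 0.16 for Ppargc1b, -0.086 to 0.18 for Pprc1, -0.036 to 0.20 for Gabpa and -0.091 to 0.069 for Polg. PQQ-H vs. PQQ-L ranged from -0.23 to 0.010 for Ppargc1b.

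The labels do not say whether libraries that share a replicate number belong together. The deviations of same-numbered libraries had correlations from -0.62 to 0.72. These cannot decide it, since the highest was between CON 1 and PQQ-H 1, both rich in striatal markers. The lowest was between CON 2, poor in them, and PQQ-H 2, rich in them. With the number as a replicate block, 0 members were called in each comparison, Nrf1 was at 0.012 and Tfam at -0.029 in PQQ-L vs. CON, and the genes called numbered 23, 48 and 0, against 65, 113 and 0 without it. Over all alternatives the genes called ranged from 1 (without the 4 striatum-rich libraries) to 865 (without CON 2) in PQQ-L vs. CON, and from 5 (without the 4 striatum-rich libraries) to 170 (all genes above 0) in PQQ-H vs. CON.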
